A study of Homo sapiens with 3 samples.

Results

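The set examined here consists of well-covered coding transcripts in cells given the solvent dimethyl sulfoxide (DMSO), compared with cells in normal medium. A transcript was a member if its RefSeq identifier marks it as protein-coding and its level was 20 RPKM or more in both libraries. RPKM counts reads relative to the transcript's length and to the library's mapped reads, so levels can be compared between genes of unequal length. The rule kept 4642 of the 25443 transcripts that had a value in any library, and of the 19674 coding transcripts that had one in both DMSO and control. Members were thus chosen by their RPKM in DMSO and control, and the same values rank them, so everything below describes these libraries and carries no test.

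The cells were HEK 293, a human embryonic kidney line (the study's methods call it HEK293T, the subline that carries the SV40 large T antigen), grown as a monolayer in DMEM with 10% fetal bovine serum. The DMSO cells were kept for 48 h in medium with 1 mM DMSO, and the control cells in medium free of both DMSO and BDE-209. Another library came from cells given 1 µM of the flame retardant BDE-209 dissolved in DMSO, with DMSO again at 1 mM, for 48 h. Each condition had 1 polyA RNA library, so no ratio has a replicate check, and a ratio compares 2 libraries rather than 2 conditions.

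DMSO is the usual solvent for hydrophobic compounds added to cell cultures, and at far higher doses it is known to affect protein folding and membranes. The lists with the lowest and the highest median ratio belong to well-known stress programmes. Heat shock proteins are chaperones that keep other proteins folded, and their genes are switched on by the transcription factor HSF1, which binds repeats of a short unit in their promoters. ATF4 is a transcription factor whose translation rises in amino acid shortage and other stresses, and its targets build serine, supply one-carbon units, import amino acids and charge tRNAs.

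Promoters of 3 heat shock genes and of 1 ATF4 target are shown because these genes had ratios far from the median and intervals that left out no change, and they let the reader see the motifs searched. Each runs 5′ to 3′ from 250 bases before to 50 bases after the RefSeq start in GRCh38.p14, and capitals mark the motif found. For the heat shock genes this is a pair of inverted units, GAANNTTC or TTCNNGAA, and for SLC7A1 it is TGATGNAA, the letters of the composite element for C/EBP and ATF factors, searched on both strands.
HSPA1A, chr6:31815293-31815592, plus strand: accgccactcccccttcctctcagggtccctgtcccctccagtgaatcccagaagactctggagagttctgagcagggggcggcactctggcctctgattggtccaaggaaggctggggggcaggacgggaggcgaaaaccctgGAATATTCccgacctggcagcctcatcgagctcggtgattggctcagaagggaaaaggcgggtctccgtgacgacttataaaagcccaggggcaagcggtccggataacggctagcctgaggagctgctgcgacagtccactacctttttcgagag
HSPA1B, chr6:31827488-31827787, plus strand: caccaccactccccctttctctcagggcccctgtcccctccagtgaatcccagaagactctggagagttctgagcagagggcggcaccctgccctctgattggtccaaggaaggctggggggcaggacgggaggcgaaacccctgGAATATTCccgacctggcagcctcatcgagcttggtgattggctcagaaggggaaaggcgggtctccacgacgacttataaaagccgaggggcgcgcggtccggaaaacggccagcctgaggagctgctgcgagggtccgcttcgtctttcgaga
HSPA8, chr11:123062087-123062386, minus strand: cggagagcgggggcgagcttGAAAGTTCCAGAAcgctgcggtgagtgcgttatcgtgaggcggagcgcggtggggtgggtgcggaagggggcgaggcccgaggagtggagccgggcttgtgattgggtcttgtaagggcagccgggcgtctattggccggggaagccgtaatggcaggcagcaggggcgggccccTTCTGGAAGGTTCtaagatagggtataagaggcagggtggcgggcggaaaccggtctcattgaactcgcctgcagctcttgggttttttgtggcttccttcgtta
SLC7A1, chr13:29595639-29595938, minus strand: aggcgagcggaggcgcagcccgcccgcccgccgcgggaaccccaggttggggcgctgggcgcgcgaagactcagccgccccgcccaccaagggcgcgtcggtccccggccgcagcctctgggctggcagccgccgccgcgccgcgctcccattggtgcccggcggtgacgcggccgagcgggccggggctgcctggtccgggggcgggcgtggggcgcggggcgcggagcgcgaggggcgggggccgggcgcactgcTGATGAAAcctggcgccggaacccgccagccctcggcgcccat

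The HSPA1A and HSPA1B promoters had the same base at 277 of 300 aligned positions (92.3%), and the pair of units began 106 and 105 bases before their starts. HSPA8 held 4 overlapping matches in 2 clusters. A pair of units occurred in the promoters of 7 of the 19 heat shock members matched to RefSeq (36.8%), which were CHORDC1, DNAJA1, DNAJB6, HSPA1A, HSPA1B, HSPA8 and HSPB1. It occurred in 13.7% of all 27305 promoters in the table and in 9.94% of the 3150 member genes matched. The longer element of 3 units (GAANNTTC followed by NNGAA, or TTCNNGAA followed by NNTTC, which overlaps the pair) was found in 4 of the 19, against 0.487% of all promoters. The TGATGNAA motif was found in 2 of the 13 ATF4 list members, AARS1 and SLC7A1 (15.4%), against 3.67% of all promoters. A match describes these letters and is not a measured binding site.

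Member transcripts differed little between DMSO and control. The median log2 ratio of DMSO to control was 0.0021, the quartiles were -0.07 and 0.07, and 79.4% of members lay within 10% of equality. The whole range ran from -0.54 to 0.44. No member passed 1.5-fold in either direction, whereas 17.7% of all coding transcripts with a value in both libraries did. Of the same 19674 transcripts, 8.72% passed 2-fold. A limit of 0.32 on the log2 scale, which is 25% more or 20% less, was used to count members at the ends. Past it stood 34 members that were higher in DMSO (0.732%) and 39 that were lower (0.84%), with 15% and 15.4% as the background over all coding transcripts. The rule removed the low transcripts, whose ratios vary most, so the gap between members and background follows from the rule and nothing further was read from it.

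**Figure D1:**
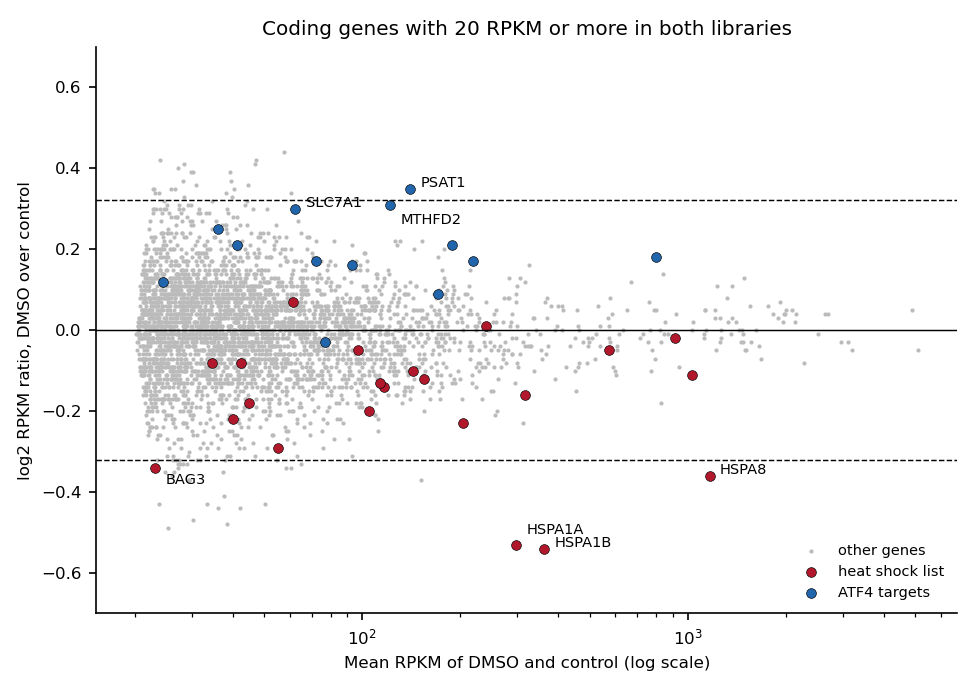
Log2 ratio of DMSO to control (vertical axis) against the mean RPKM of both libraries on a log axis, 1 point per member gene, with dashed lines at the log2 limit of 0.32 either way. The spread narrows towards high levels, and HSPA1A, HSPA1B and HSPA8 (heat shock list, red) lie below the lower line at levels where few other genes do.

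The spread was set beside the error of counting reads. The SD of the member ratios was 0.118 on the log2 scale, and the recovered read counts gave a counting SD of 0.104, which is at most 77.4% of the variance. The recovered counts are the smallest whole numbers that fit the deposited values, so counting error is an upper limit here. With 1 transcript kept per gene (3756 genes, the isoform with the highest mean level), the SD fell from 0.134 at 20 to 30 RPKM to 0.069 among the 100 genes at 500 RPKM or more. Counting alone gave 0.127 and 0.034 in these bands. Above 500 RPKM counting therefore accounted for at most 24.6% of the variance, and the remainder includes any difference between cultures, libraries and treatments, which cannot be told apart.

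**Figure D2:**
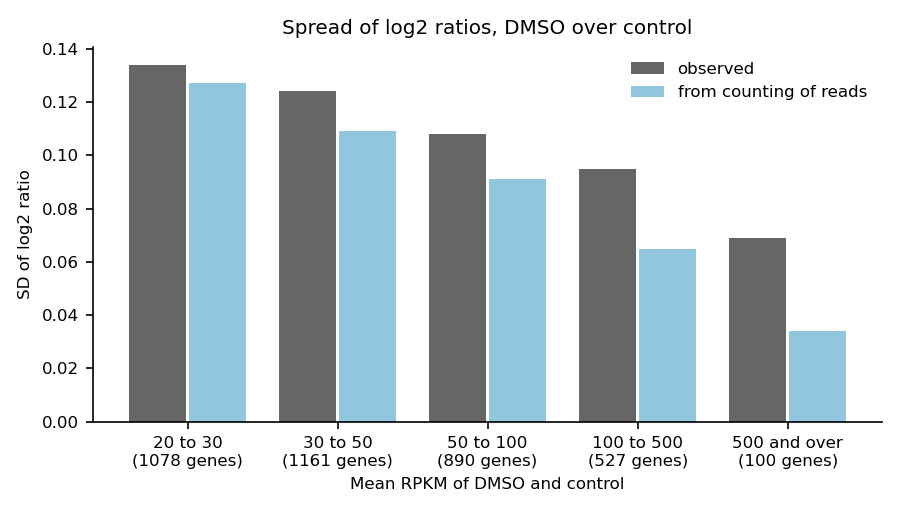
SD of the log2 ratio of DMSO to control in 5 bands of mean RPKM, beside the SD that counting error alone gives. Both are near 0.13 at 20 to 30 RPKM, and at 500 RPKM and over the observed SD is 0.069 against 0.034 from counting.

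The exact 95% counting interval of the ratio (Clopper-Pearson, which covers counting error only) left out no change for 593 members (12.8%), against 6.69% of all coding transcripts. It did so for 60 of the members past the log2 limit of 0.32 (1.29%), against 3.01%. These intervals say how firmly a ratio between 2 libraries was counted and not whether a second culture would show it.

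The heat shock list had the lowest median and held the 2 lowest genes of the ranking. HSPA1B (GRCh37 chromosome 6, 31795515 to 31798031), an inducible cytosolic HSP70 chaperone, measured 430.8 RPKM in control, 295 in DMSO and 304 in BDE-209 with DMSO. Its log2 ratio of DMSO to control was -0.54 (interval -0.61 to -0.48), the lowest of all members. Control was thus 1.46-fold above DMSO, and both libraries with DMSO were near each other.

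HSPA1A (chromosome 6, 31783320 to 31785723), its neighbour, measured 351, 242 and 246 RPKM in control, DMSO and BDE-209 with DMSO, a log2 ratio of -0.53 for DMSO (interval -0.60 to -0.46). These 2 genes encode nearly the same protein from near-identical sequences, and the study used uniquely mapped reads, so how much of each was counted is not known and their values are uncertain as separate measurements. HSPA8 (chromosome 11, 122928197 to 122933938), the constitutive cytosolic HSP70, measured 1314, 1021 and 1005 RPKM, with a ratio of -0.36 (interval -0.40 to -0.33) from 14489 and 11112 reads. All 3 HSP70 genes were thus highest in control.

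BAG3 (chromosome 10, 121410892 to 121437331), a cochaperone of HSP70 and itself a heat shock gene, was the fourth of the list past the 0.32 limit, with 25.7 RPKM in control, 20.4 in DMSO and 19.6 in BDE-209 with DMSO (ratio -0.34, interval -0.58 to -0.10). Among the cochaperones short of that limit, DNAJB1 measured 60.4, 49.5 and 45.7 RPKM, and its ratio was -0.29 (interval -0.45 to -0.12). DNAJA1, another DnaJ partner of HSP70, measured 220, 187 and 203 RPKM, a ratio of -0.23. CHORDC1, an HSP90 cochaperone, measured 43.1, 37.0 and 38.2 RPKM, a ratio of -0.22. HSPH1, the HSP110 nucleotide exchange factor, stood at -0.20 and STIP1, which links HSP70 to HSP90, at -0.16.

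The HSP90 genes showed smaller ratios. HSP90AA1, the inducible isoform, measured 1067 RPKM in control, 990.0 in DMSO and 989 in BDE-209 with DMSO (ratio -0.11, interval -0.14 to -0.08). HSP90AB1, the constitutive isoform, measured 920.3, 908 and 889 RPKM, and its interval for DMSO to control (-0.06 to 0.02) held no change. The mitochondrial chaperonin pair HSPD1 and HSPE1 stood at -0.05 and -0.10, and HSF1 itself at -0.08 with an interval (-0.27 to 0.12) that held no change.

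Counted over the whole list, 22 of the 23 genes on the heat shock list, which also holds the mitochondrial pair and the HSF regulators, were members, and DNAJB4 fell short with 10.6 RPKM in control. The ratio lay below 1 for 20 of the 22, and the counting interval lay below no change for 13 (59.1%) and above it for 0. Over all 3756 genes the interval lay below for 5.8% and above for 7.2%. These shares are not fully comparable, because an interval narrows as reads increase. HSP90AA1 was counted at a ratio of -0.11 from 17392 control reads, against a median of 543 control reads over all genes. The list's median log2 ratio was -0.14, against 0.0013 over all genes. Without HSPD1 and HSPE1, 18 of 20 lay below 1, 12 intervals lay below no change and the median was -0.15. The members above 1 were HSPB1, a small heat shock protein, at 0.07 and ST13, an HSP70 cochaperone, at 0.01, both with intervals that held no change.

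The other lists of protein folding and degradation genes showed smaller ratios, and none of their genes passed the 0.32 limit in the isoform kept. A second isoform of PSMC4, an ATPase of the proteasome, did, at -0.34 (interval -0.53 to -0.16), while the kept isoform stood at -0.29. PFDN6, a prefoldin subunit outside these lists, also passed the limit, at -0.34 (interval -0.65 to -0.03). Among 6 subunits of the CCT chaperonin, which folds actin and tubulin, 5 lay below 1 and 4 had intervals below no change (66.7%), with a median of -0.09. Among 28 proteasome subunits 23 lay below 1, with a median of -0.08 and 3 intervals below no change (10.7%). Over all genes the share of intervals below was 5.8%. The chaperones of the endoplasmic reticulum (14 members) had a median of -0.04, from MANF at -0.27 to SYVN1 at 0.21.

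The ATF4 targets had the highest median of the lists, although 1 gene alone passed the 0.32 limit and none was among the 12 highest. PSAT1 (chromosome 9, 80912041 to 80945009), the phosphoserine aminotransferase of serine synthesis, measured 124 RPKM in control, 158 in DMSO and 158 in BDE-209 with DMSO. Its log2 ratio of DMSO to control was 0.35 (interval 0.25 to 0.46), a 1.28-fold higher level, and its counting interval lay farther above no change than that of any other gene kept at 20 RPKM or more. MTHFD2 (chromosome 2, 74413299 to 74444692), an enzyme of mitochondrial folate metabolism, measured 109, 135 and 134 RPKM (ratio 0.31, interval 0.15 to 0.47). SLC7A1 (chromosome 13, 30083551 to 30169825), a transporter of cationic amino acids, measured 55.8, 68.8 and 69.5 RPKM (ratio 0.30, interval 0.22 to 0.39). In all 3 genes both libraries with DMSO were close together and above control.

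The ATF4 transcript itself measured 749, 848 and 843 RPKM, a ratio of 0.18 (interval 0.12 to 0.23). STC2, which encodes the secreted glycoprotein stanniocalcin 2, stood at 0.25, and SESN2, a stress-induced inhibitor of mTORC1, at 0.21. The tRNA synthetase genes GARS1, AARS1 and EPRS1 stood at 0.21, 0.16 and 0.09. PHGDH, the first enzyme of serine synthesis, and SLC7A5, a transporter of large neutral amino acids, both stood at 0.17.

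Of the 28 genes on the ATF4 list, which also holds ATF4 itself, 13 were members, ATF4 among them. The ratio lay above 1 for 12, and the interval lay above no change for 11 (84.6%) and below it for 0, with a median log2 ratio of 0.18. Over all 3756 genes the interval lay above for 7.2% and below for 5.8%, and such shares depend on read number too. CEBPG, at 0.12, had an interval that held no change, and DDIT4, at -0.03, was the member below 1. The 15 other listed genes were below 20 RPKM in at least 1 library and gave a mixed picture. The isoform taken for SHMT2 was listed in control at 0.18 RPKM, from 2 reads, but not in DMSO or BDE-209 with DMSO. That is too few reads to give a direction. Of the remaining 14, 7 lay above 1 and 7 below. Among these, SLC7A11, the cystine transporter, measured 11.7, 16.5 and 16.6 RPKM in control, DMSO and BDE-209 with DMSO (ratio 0.49, interval 0.33 to 0.65). CTH, which makes cysteine from cystathionine, measured 3.38, 6.94 and 5.70 RPKM (ratio 1.04, interval 0.44 to 1.67). WARS1 went the other way with 4.89, 3.14 and 2.57 RPKM (ratio -0.64, interval -1.25 to -0.04). DDIT3 and ASNS, both well-known ATF4 targets, were near 1 RPKM in control with intervals too wide to read a direction.

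**Figure D3:**
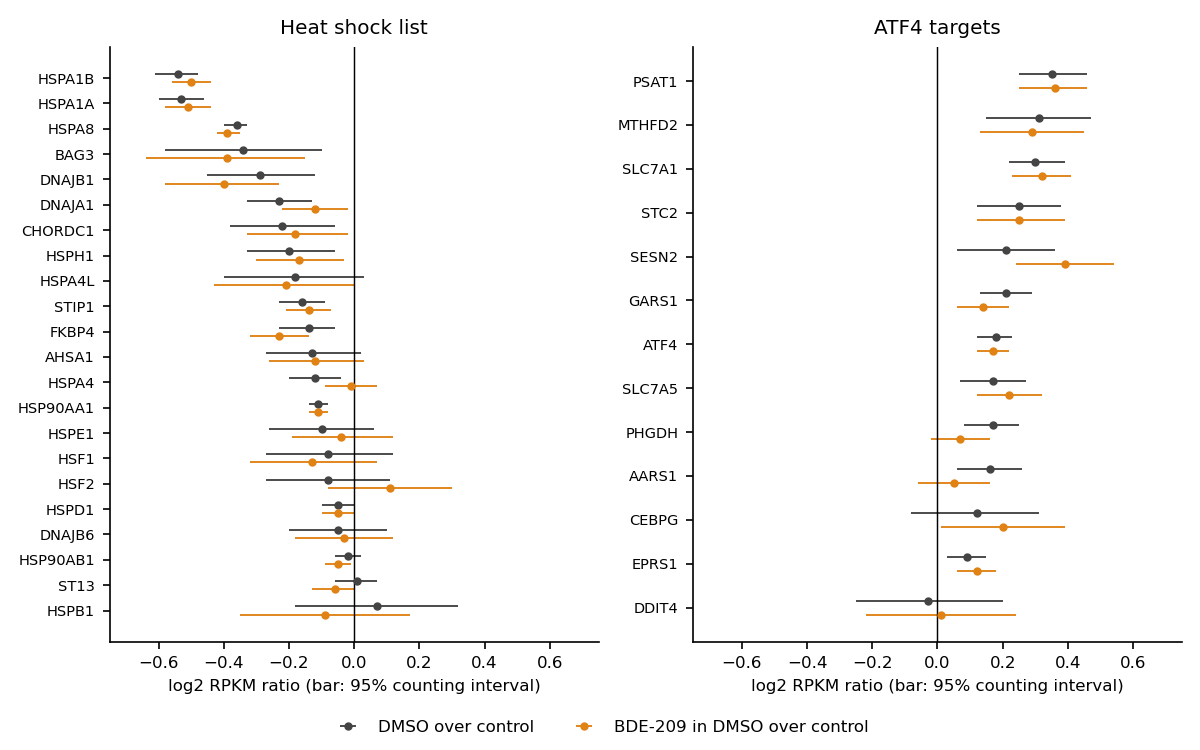
Log2 ratio to control with its 95% counting interval, for the member genes of the heat shock list and of the ATF4 list, in DMSO and in BDE-209 with DMSO, which share the control library. For DMSO, 20 of 22 heat shock genes lie below 0 and 12 of 13 ATF4 genes above it.

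Both lists gave similar medians in the BDE-209 library. For heat shock members the median ratio of BDE-209 with DMSO to control was -0.12, with 21 of 22 below 1. For ATF4 members it was 0.20, with 13 of 13 above 1. The comparisons share the control library, so the same control value enters both. Set directly against DMSO, BDE-209 gave medians of 0.01 and 0.00, and intervals left out no change for 3 of 22 and 3 of 13 genes. In that comparison they did so for 296 of all 3756 genes and for 4.68% of all coding transcripts. In the heat shock list these were HSPA4 (0.11), DNAJA1 (0.11) and ST13 (-0.07), and in the ATF4 list SESN2 (0.18), AARS1 (-0.11) and PHGDH (-0.10).

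Beside these results stands a difference in RNA classes that polyA selection should remove. RN7SL1 and RN7SL2, the RNA of the signal recognition particle, measured 1212 and 1232 RPKM in control, 59.4 and 48.3 in DMSO, and 75.1 and 67.2 in BDE-209 with DMSO. The ribosomal RNA RNA28SN5 measured 1939, 863 and 812 RPKM. These RNAs were higher in control than in both other libraries, as the HSP70 genes were, and their part in the ratios of the members was not tested.

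The single genes with the highest ratios came from no common list. TMEM258 (chromosome 11, 61535973 to 61560274), a subunit of the complex that N-glycosylates proteins, measured 48.7 RPKM in control, 66.2 in DMSO and 60.1 in BDE-209 with DMSO, the highest ratio of all members at 0.44 (interval 0.06 to 0.83). WLS, the carrier that brings Wnt proteins to the cell surface, measured 20.5, 27.5 and 22.3 RPKM (ratio 0.42). WBP2 (chromosome 17, 73841780 to 73852588), which binds WW domains, measured 40.4, 54.0 and 45.0 RPKM (ratio 0.42). VAMP2 (chromosome 17, 8062467 to 8066864), a vesicle SNARE, measured 40.3, 53.6 and 49.003 RPKM (ratio 0.41). In these 4 genes the BDE-209 library lay between control and DMSO.

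The other 8 of the 12 highest ranged from 0.36 to 0.41. They were CBY1, an antagonist of beta-catenin, ID4, an inhibitor of helix-loop-helix factors, RAB5A, the GTPase of early endosomes, CUEDC2, TACO1, which aids translation of a mitochondrial cytochrome oxidase subunit, ABCB10, a transporter of the inner mitochondrial membrane, GET3, which delivers tail-anchored proteins to the endoplasmic reticulum, and YIPF2, a Golgi membrane protein. With 1 isoform kept per gene, all 12 had counting intervals above no change, but from a median of 213 control reads, and 7 had under 30 RPKM in control. An isoform of SIVA1 that was not kept stood at 0.43 (20.1 RPKM in control, 27.1 in DMSO and 19.0 in BDE-209 with DMSO), with an interval of -0.08 to 0.94 that held no change. Ranked by the interval instead of the ratio, POGLUT3 (35.5, 45.4 and 43.1 RPKM, ratio 0.35), MIA3, an exporter of collagen from the endoplasmic reticulum (28.2, 34.5 and 34.5 RPKM, ratio 0.29), and MED12, a Mediator subunit (20.6, 25.4 and 22.1 RPKM, ratio 0.30), joined the top 10.

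Among the 12 lowest, the 10 genes besides HSPA1B and HSPA1A ranged from -0.49 to -0.37. ROMO1, TIMM8B, FMC1, MRPL27 and CHCHD4 encode mitochondrial proteins, as do TACO1 and ABCB10 among the 12 highest, and no list of such genes was counted beyond the respiratory chain. FMC1 is an assembly factor of ATP synthase, MRPL27 a protein of the mitochondrial ribosome, and CHCHD4 oxidises proteins imported into the intermembrane space. MRPL27 measured 57.6 RPKM in control, 42.8 in DMSO and 43.2 in BDE-209 with DMSO (ratio -0.43, interval -0.74 to -0.12). FMC1 measured 27.2, 20.2 and 16.9 RPKM (ratio -0.43), and its interval of -0.91 to 0.05 held no change, as did that of CHCHD4 (ratio -0.37, interval -0.97 to 0.21). The longer member isoform of CHCHD4 also stood at -0.37, from 239 control reads, and its interval of -0.65 to -0.08 left out no change. The intervals of ROMO1, TIMM8B and MRPL27 lay below no change. These genes were short and had few reads, and the 12 lowest had a median length of 778 bases and a median of 168 control reads.

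GNL3L (chromosome X, 54556616 to 54647954), a nucleolar GTPase, was counted far better. It measured 38.3 RPKM in control, 28.3 in DMSO and 28.2 in BDE-209 with DMSO, a ratio of -0.43 (interval -0.54 to -0.32), and its second member isoform gave -0.44 from largely the same reads. ZNF121, a zinc finger protein, measured 29.5, 21.0 and 25.6 RPKM (ratio -0.49, interval -0.78 to -0.20). DYNLL1, the dynein light chain, measured 48.4, 35.7 and 39.7 RPKM (ratio -0.44), whereas its other member isoform stood at -0.19 with an interval that held no change. SLX9 and LLPH completed the 12, at -0.47 and -0.41.

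Ranking by the interval added HSPA8, described above, and SFPQ, SRSF6, LYAR, PDCD5 and PHOSPHO2-KLHL23 at the low end. SFPQ, a splicing and paraspeckle protein, measured 274 RPKM in control, 238 in DMSO and 236 in BDE-209 with DMSO (ratio -0.21, interval -0.27 to -0.14). SRSF6, a splicing factor, measured 75.3, 63.0 and 72.9 RPKM (ratio -0.26, interval -0.37 to -0.14), so that the BDE-209 library lay near control. LYAR, a nucleolar protein, measured 103, 83.2 and 77.0 RPKM (ratio -0.31). PDCD5 measured 171, 132 and 159 RPKM (ratio -0.37), with BDE-209 again nearer to control. The read-through transcript PHOSPHO2-KLHL23 (ratio -0.33) overlaps its parent genes, so its reads cannot be assigned with certainty.

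**Figure D4:**
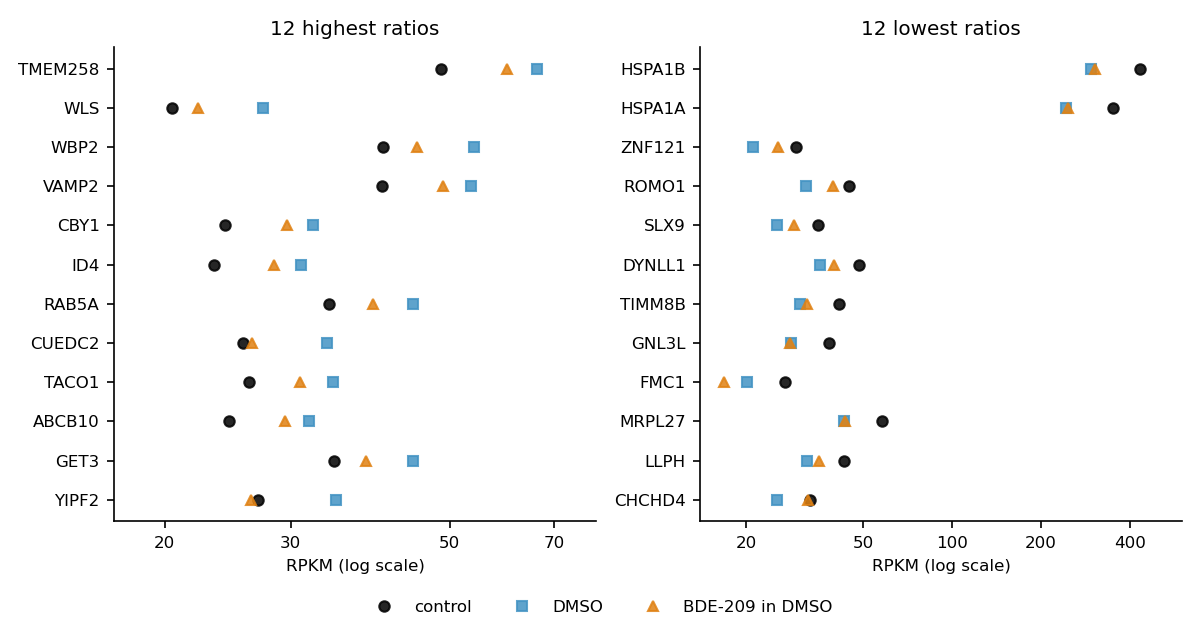
RPKM on a log axis of the 12 member genes with the highest and the 12 with the lowest ratio of DMSO to control, 1 point per library (control, DMSO and BDE-209 in DMSO). The BDE-209 point lies between control and DMSO for 11 of the 12 highest and 10 of the 12 lowest genes, and for HSPA1B, HSPA1A and GNL3L it nearly coincides with DMSO.

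The direction in BDE-209 with DMSO against control was read for the genes at both ends, with the shared control library in mind. It was the same for 11 of the 12 highest genes, with YIPF2 (-0.03) as the exception, and for 12 of the 12 lowest. None of the highest 12 and 6 of the lowest 12 also passed the 0.32 limit there, beside a background of 14.9% of all coding transcripts higher and 15.6% lower in that comparison. Those 6 were not all close to the limit, since FMC1 stood at -0.69, the 1 member past 1.5-fold in that comparison (17.5% of all coding transcripts). FMC1 had 16.9 RPKM in the BDE-209 library, from 54 reads, as the rule set no minimum there. The median of the highest 12 was 0.40 in DMSO and 0.22 in BDE-209 with DMSO, and that of the lowest 12 was -0.44 and -0.32. The genes were ranked on the DMSO ratio, so the larger size there is part of the rule.

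Of all 25 genes past the 0.32 limit higher in DMSO, 22 were also above control in the BDE-209 library, and of the 31 lower, 29 were also below it. Over all 3756 genes, 1736 were above control in that library and 2020 below. Genes at the ends were picked on a ratio to the same control value, so agreement in direction is partly built in. Among the members as transcripts, 22 were higher and 66 lower past the 0.32 limit in BDE-209 with DMSO against control (0.474% and 1.42%). Over all coding transcripts these shares were 14.9% and 15.6%. The rule set a minimum in control and DMSO but none in BDE-209, which tilts counts in both BDE-209 comparisons towards lower. BDE-209 set against DMSO had 15 members higher and 45 lower (0.323% and 0.969%, with 14.3% and 14.8% of all coding transcripts). There, 380 intervals (8.19%) left out no change, against 593 (12.8%) for DMSO to control. Over all coding transcripts these shares were 4.68% and 6.69%. Its SD over members was 0.107, at most 95.8% of whose variance came from counting, against 0.118 for DMSO to control. By the interval counts and SDs the DMSO and BDE-209 libraries were somewhat nearer to each other than DMSO was to control. More members were lower past the limit, however, in BDE-209 against DMSO (45) than in DMSO against control (39).

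The remaining lists held few or no genes past the 0.32 limit. Of the respiratory chain and ATP synthase subunits (63 members) 40 lay below 1 with a median of -0.03, and the 2 past the limit were lower. NDUFS4, the lowest at -0.33, measured 32.4 RPKM in control, 25.7 in DMSO and 33.5 in BDE-209 with DMSO. Its interval of -0.77 to 0.09 held no change. NDUFAB1 measured 72.4, 57.5 and 72.6 RPKM (ratio -0.33, interval -0.59 to -0.07). Neither gene was below control in the BDE-209 library. RAE1, an mRNA export factor at the nuclear pore, stood at -0.35 among 27 nuclear pore members with a median of -0.03. Translation factors went slightly the other way, with 21 of 29 above 1, 7 intervals above no change (24.1%) and a median of 0.04, EEF1B2 being highest at 0.17. Large and small ribosomal subunit proteins (45 and 32 members) both had medians of 0.00, which upper quartile scaling moved to -0.02. Of the 45, 9 had intervals above no change and 1 below. For all 3756 genes the shares were 7.2% above and 5.8% below. Such shares depend on read number. RPL4 had an interval above no change at a ratio of only 0.05, from 13854 control reads. The median over all genes was 543 control reads.

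Splicing factors and hnRNPs lay below 1 in 23 of 30 members, with a median of -0.04 and 6 intervals below no change. The share of intervals below was 5.8% for all genes, and it too depends on read number. Sterol synthesis genes lay below 1 in 12 of 15, with HMGCS1, the first committed enzyme of the mevalonate route, lowest at -0.29. The NRF2 and antioxidant list (18 members) had a median of -0.01, from KEAP1 at -0.29 to GPX4 at 0.31. Mitotic genes (26 members, median -0.04), DNA replication genes (33, median 0.02, or 0.00 with upper quartile scaling), glycolysis (12, median -0.04) and the actin list (20, median -0.01) were close to the median over all genes. Immediate early genes, p53 targets, hypoxia genes, and metallothioneins with methionine sulfoxide reductases had 4 members or fewer each, too few to describe as groups. Polyadenylated histone variants (9 members) had a median of 0.06, nucleolar and HMG proteins (18) of -0.03 and tubulins (10) of 0.00.

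**Figure D5:**
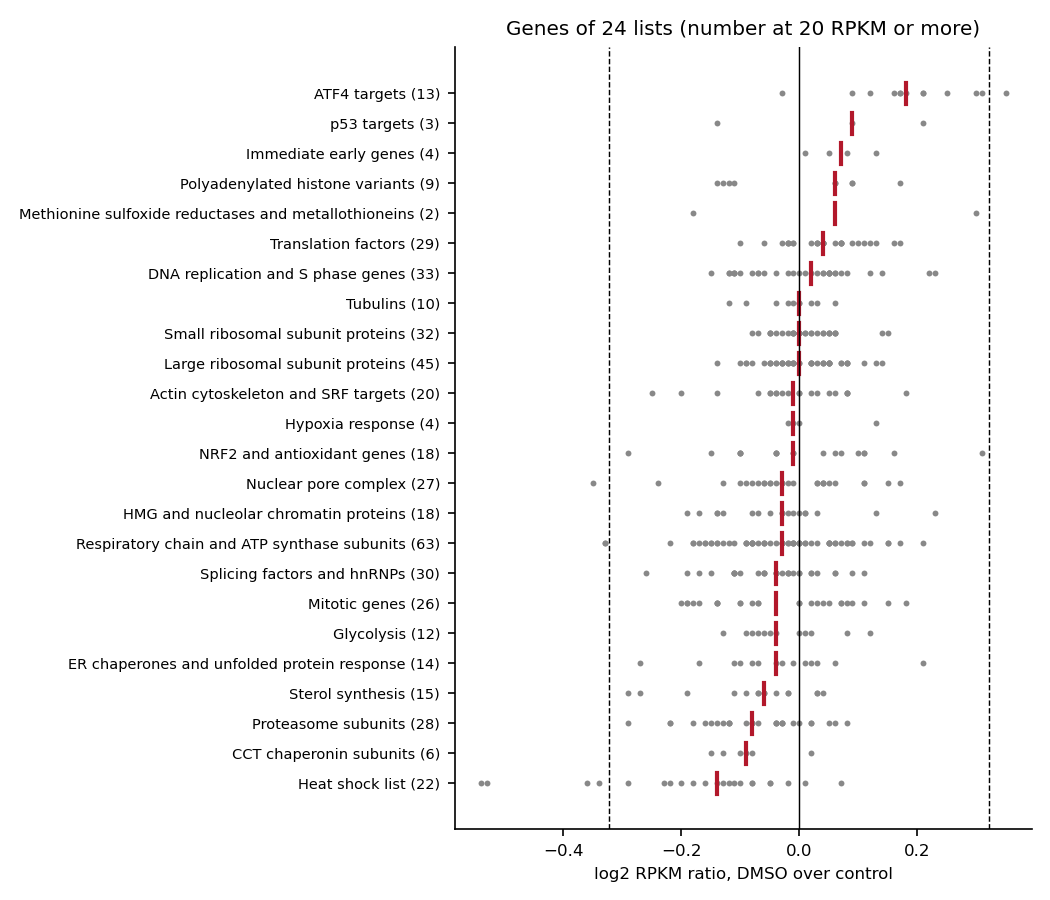
Log2 ratio of DMSO to control for the member genes of each list, 1 point per gene, with the list's median as a bar and the log2 limit of 0.32 as dashed lines. The heat shock list has the lowest median (-0.14) and the ATF4 list the highest (0.18), and most points of the other lists lie inside the dashed lines.

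Transcript length moved with the ratio. Genes whose transcript was under 1 kb (518) had a median of -0.02, with 4 higher and 15 lower past the 0.32 limit, and those of 4 kb and over (838) had a median of 0.02, with 1 higher and 2 lower. The heat shock members had a median length of 2307 bases and the ATF4 members of 3344, against 2350 over all genes. In DMSO against control, the medians showed no steady trend across quintiles of transcript GC content and ran from -0.002 to 0.017. Median GC was nevertheless 54.9% in genes past the limit higher and 48.8% in those lower. It was 53.5% in the ATF4 members and 47.2% in the heat shock members, against 48.3% over all genes with a GC value. For BDE-209 with DMSO against control, the quintile medians fell at each step, from 0.023 at the lowest GC to -0.04 at the highest. The part of length and GC in the list medians was not tested.

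The label of the line was checked against markers. VIM measured 299, 296 and 261 RPKM in control, DMSO and BDE-209 with DMSO, and 5 of 10 HEK293 markers were at 20 RPKM or more in all libraries, while PAX2 was not listed and CITED1 was under 1. Of the markers of other cells, 7 of 8 for kidney tubule, 6 of 7 for fibroblasts, 5 of 8 for blood and 5 of 5 for hepatocytes were under 1 RPKM in every library. The summed blood markers were 13.6, 9.57 and 8.44 RPKM, and those of fibroblasts 5.58, 5.91 and 5.63. At the limit of 20 RPKM, RAB3GAP2 (20.001 RPKM in control, 22.7 in DMSO), ADAMTS1 (20.2 and 20.02) and TRIM41 (20.02 and 21.6) lay just inside, and B3GALNT2 (19.99 and 21.0), UNC119B (20.8 and 19.99) and SPINT2 (19.998 and 20.7) just outside.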

How the data were processed

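Each condition had 1 library, read from a single end over 49 bases. The authors aligned them to hg19 with SOAPaligner 2.21, allowing 2 mismatches, used reads that mapped to 1 place, and deposited a list of RPKM per RefSeq transcript. Transcripts without a read are not listed, and how reads common to several isoforms were assigned is not given in the sources used here. Groups came from the treatment labels.

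Values were used as deposited, without a pseudocount, with pandas 2.3.3 and scipy 1.17.1 under Python 3.11.15. Totals recovered from the steps of the RPKM values were 4843624 reads in control, 4782044 in DMSO and 4676793 in BDE-209 with DMSO. These totals are smaller than the uniquely mapped reads given in the study's supplement, for a reason not given in the sources used here. Read counts, recovered for all 4642 members, are the smallest whole numbers that fit and so lower bounds. The lowest member count was 11 reads. The recovery was tested on simulated data. Intervals are exact 95% Clopper-Pearson and cover counting error only. With 1 library each there is no test.

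Symbols matched 4576 members. Of the genes, 879 had several member isoforms, and the 1 with the highest mean RPKM was kept. Positions are from GENCODE lifted to GRCh37, and promoters from RefSeq. Named were the 12 highest and lowest ratios, the 10 per end with intervals farthest from no change, list genes past the 0.32 limit, and 3 transcripts on each side of the limit. List genes named short of it, or below 20 RPKM, and the non-coding RNAs were chosen after their values were seen. Members and lists were chosen with earlier results of these data known. Alternatives covered the fold, the RPKM minimum, scaling, a pseudocount and isoforms.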

Additional observations from a re-analysis of the deposited data

Results flagged for a closer look

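Non-coding transcripts were not part of the comparison. Of 167 with 20 RPKM or more in both libraries, 1 was above control by more than 0.32 on the log2 scale in DMSO and 11 were below. The 1 above was NR_034073, with 70.8 RPKM in DMSO, 55.8 in control and 63.0 in BDE-209 with DMSO, a log2 ratio of 0.34 for DMSO (95% counting interval 0.19 to 0.50). It was picked out because its level lay above the control level in data outside the coding comparison.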

How the results depend on the processing

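At 1.5-fold or 2-fold, 0 member transcripts were higher and 0 lower. With an RPKM minimum of 10 in both libraries (7514 transcripts) 118 were higher and 119 lower past 0.32 on the log2 scale, with a minimum of 50 (1775 transcripts) 3 and 9, and with no minimum 2953 and 3028. These counts follow the number of low transcripts let in. The median log2 ratio was -0.0051 at a minimum of 50, 0.0185 with no minimum and -0.0177 with upper quartile scaling. At a minimum of 10 RPKM, 5 list genes were higher past the 0.32 limit in place of 1. Upper quartile scaling, which shifted every ratio by -0.0199, gave 28 higher and 57 lower transcripts, beside 34 and 39 as deposited. The cause of the shift in medians was not tested. In 33 other combinations of a result and a setting the counts stayed within 1.5 times the main count. The medians over members among them ran from -0.0, with that median scaled to 0, to 0.005 at a minimum of 10 RPKM. The main value was 0.0021. No ratio of a named gene changed sign under another scaling, the pseudocount or summed isoforms. List medians near 0 did not keep their sign under upper quartile scaling, which moved DNA replication genes from 0.02 to 0.00 and small ribosomal subunit proteins from 0.00 to -0.02. The heat shock median without HSPD1 and HSPE1 (-0.15) was chosen after seeing the data.

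No paired analysis was possible because each condition has 1 library and the labels carry no replicate numbers. Leaving out a library in turn was not run, since each condition has 1.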
